A study of Mus musculus with 9 samples.

Results

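The 9 transcription factor genes Pax3, Pax6, Pax9, Pitx1, Prrx1, Prrx2, Alx4, Twist1 and Tfap2a were followed across 3 days of mouse development in orofacial tissue, which gives rise to the face and palate. They were chosen by symbol, as all probe sets that the array annotation assigns to exactly 1 gene and to one of these names. All 9 genes were found, among 8251 genes measured in this way, and they had 10 probe sets among 12488, with 2 for Tfap2a and 1 for each other gene. The samples were total RNA of embryonic orofacial tissue on gestation day (GD) 12, GD13 and GD14, with 3 arrays per day numbered 1 to 3 in the sample titles and no other factor in the labels. The labels give no strain, genotype, treatment, litter or pool. They do not say that arrays of a day came from separate embryos, so p-values measure only the spread between these samples, which may be technical.

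The face is built largely by mesenchyme that descends from the cranial neural crest, covered by an epithelium derived from surface ectoderm. The factors described here mark parts of these tissues. Pax proteins bind DNA through a paired domain, and Pitx1, Prrx1, Prrx2 and Alx4 carry homeodomains related to those of the Pax family. Twist1 is a basic helix-loop-helix protein of mesenchyme, and Tfap2a is the AP-2 alpha factor of neural crest and ectoderm. In mice, loss of Pax9, Pitx1, Prrx1 or Tfap2a disturbs the palate or face, and combined loss of Alx family genes splits the midline of the face.

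Each value is an intensity on a linear scale that the authors had scaled between arrays. Values were compared as log2 of the intensity plus 3, in a limma model of the 3 day means over 9326 probe sets above a filter intensity of 10.4. A probe set counted as changed at a Benjamini-Hochberg adjusted p under 0.05. Arrays of the same number deviated together from their day means across probe sets, so a second model with the number as a block is quoted wherever it changes a call reported here. The array numbers also differed in a control signal. The actin control probe sets had a 3' signal over 5' signal of 1.42, 1.25 and 1.37 on the third arrays of GD12, GD13 and GD14. On arrays 1 and 2 it rose with the day, from 1.542 and 1.765 at GD12 to 2.094 and 2.225 at GD13 and 2.445 and 2.292 at GD14. The ratio is therefore partly confounded with the day, which limits the model that takes it as a covariate. All 10 probe sets passed the filter.

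Between GD14 and GD12, 0 of the 10 probe sets changed in the limma model, where 4.3% of all tested probe sets did. At an unadjusted p under 0.05, 1 of the 10 passed, that of Pax9, against 17.5% of all probe sets. Between GD13 and GD12, 0 of 10 changed (0.643% of all), and 1 passed at an unadjusted p under 0.05, against 11% of all. Between GD14 and GD13, 0 of 10 changed (0.0429% of all), and 0 passed unadjusted, against 7.18% of all. The F-test over the 3 days called 0 of 10 (2.58% of all), with 1 of 10 passing unadjusted, against 14.2% of all. The median log2 difference of the 10 probe sets was -0.28 for GD14 minus GD12, against -0.02 for all tested probe sets. With the array number as a block, 1 of the 10 probe sets changed between GD14 and GD12, that of Alx4, against 6.65% of all. At an unadjusted p under 0.05 with the block, 5 of the 10 passed for GD14 minus GD12, Pax9, Pitx1, Prrx1, Alx4 and Twist1, against 24.0% of all. The block gave 0 of 10 calls for GD13 minus GD12, where it called 69 of all 9326 probe sets. It also gave 0 of 10 calls for GD14 minus GD13 (0.0643% of all) and 0 of 10 in the F-test (3.53% of all). The F-test p of Alx4 with the block was 0.0503 after limma's adjustment, just over the threshold. The tissue is a mixture of cell types, and fewer cells of a type cannot be told apart from less RNA per cell.

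**Figure D1:**
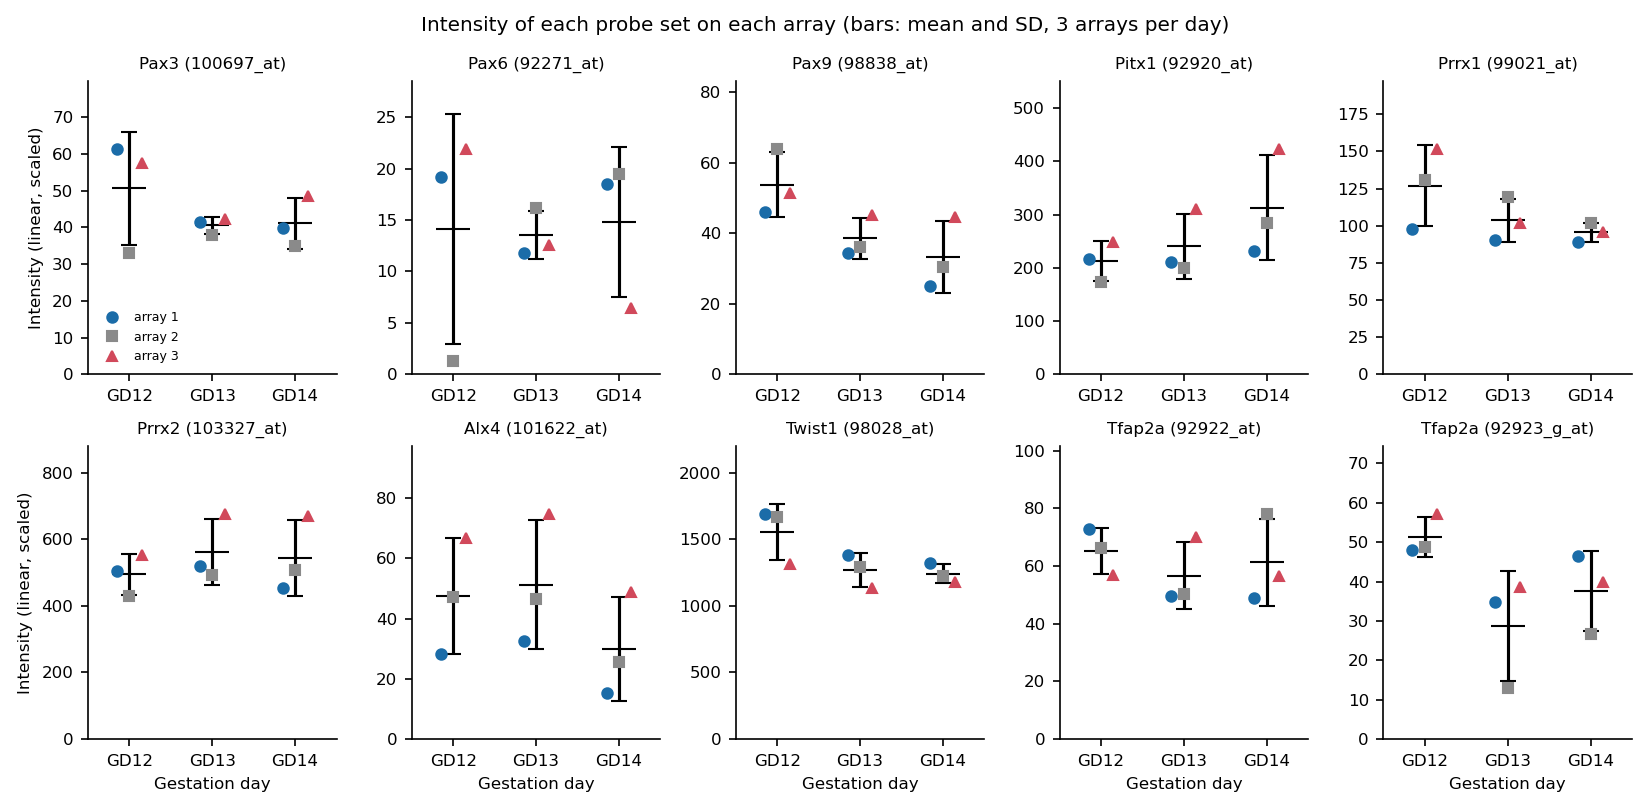
Linear intensity (y axis) of the 10 probe sets on each of the 9 arrays, by gestation day (x axis), with symbols for array numbers 1 to 3 and bars for the mean and SD of 3 arrays. Within a day the spread of Alx4 is as wide as any step between days, and array number 3 is its highest on each day.

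Among the Pax genes, Pax9 is needed for the secondary palate and the teeth in mice. Its intensity was 46.1, 63.9 and 51.5 at GD12, then 34.4, 36.0 and 45.2 at GD13 and 25, 30.3 and 44.7 at GD14. Every GD13 and GD14 array lay below every GD12 array, and the GD14 and GD13 arrays overlapped. Such separation from GD12 was found for 2 of the 10 probe sets on GD14, against 22.3% of all tested probe sets, and for 2 of 10 on GD13, against 18.5%. These were Pax9 and the _g_at probe set of Tfap2a on both days. Pax9 averaged 33.3 ± 10.2 on GD14 and 53.8 ± 9.13 on GD12 (SD, n = 3 each). The log2 difference was -0.67 (SE 0.23, 95% interval -1.19 to -0.15), with a limma adjusted p of 0.164, so the difference did not pass the threshold over all probe sets. It was lower on GD14 within 3 of 3 array numbers, by log2 differences of -0.81, -1.01 and -0.19, a pattern of one direction that 42.8% of all probe sets also showed. With the block the adjusted p was 0.0831, and across the alternatives tried it lay between 0.0562 and 0.403.

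Pax3 acts in neural crest, melanocyte precursors and muscle progenitors. Its intensity was 61.3, 33.0 and 57.4 at GD12, then 41.5, 37.9 and 42.3 at GD13 and 39.8, 34.8 and 48.6 at GD14. The lowest array of all was the second of GD12, and the days overlapped. The log2 difference of GD14 minus GD12 was -0.25 (95% interval -0.78 to 0.29), with an adjusted p of 0.665 in limma. Without the second GD12 array it was -0.51, and without the first -0.09, so its size rested on single GD12 arrays. Among markers of cells that use Pax3, melanocyte markers had 0 calls among 3 genes tested. The summed intensity of the 4 measured melanocyte markers was 71.4 to 122 on GD14 and 81.7 to 147 on GD12. Muscle precursor and myoblast markers had 0 calls among 8, with a summed intensity of 432 to 692 on GD14 and 383 to 387 on GD12. Their part in the Pax3 level was not tested.

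Pax6, a factor of the eye, the nasal placode and the forebrain, was the dimmest of the set relative to the filter, with 2 of its 9 arrays under 10.4. Its intensity was 19.2, 1.3 and 21.9 at GD12, then 11.8, 16.2 and 12.6 at GD13 and 18.5, 19.5 and 6.4 at GD14. The second GD12 array and the third GD14 array were low, and no order of days could be read. The log2 difference of GD14 minus GD12 was 0.31, with a 95% interval of -1.12 to 1.75 that allows a change of more than 2-fold in either direction (adjusted p = 0.861 in limma). Without the second GD12 array the sign turned, to -0.51. Lens and eye markers had 0 calls among 7 genes tested. The summed intensity of the 9 measured ones was 314 to 554 on GD14 and 262 to 399 on GD12. Much of this sum came from Crybb2, with means of 174 on GD14 and 183 on GD12. It is therefore no measure of the amount of eye tissue. Forebrain and olfactory markers had 0 calls among 3 genes tested. The sum of the 7 measured ones, which include genes under the filter, was 83.9 to 111 on GD14 and 127 to 168 on GD12. Mip, a lens membrane protein gene, lay under the filter intensity on all arrays. The part of either list in the Pax6 values was not tested.

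Pitx1, a factor of oral ectoderm, the mandible, the pituitary and the hindlimb, had intensities of 217, 174 and 249 at GD12, then 210, 200 and 311 at GD13 and 232, 284 and 423 at GD14. The third array was the highest of each day, and the days overlapped. Pitx1 averaged 313 ± 98.8 on GD14 and 213 ± 38.0 on GD12 (SD, n = 3 each). The log2 difference was 0.52 (95% interval -0.09 to 1.13, 1.43-fold), with an adjusted p of 0.368 in limma and 0.113 with the block. It was higher on GD14 within 3 of 3 array numbers, by log2 differences of 0.10, 0.70 and 0.76. A single direction within 3 of 3 was found for 6 of the 10 probe sets, against 42.8% of all. With the actin ratio as a covariate the log2 difference was 0.81 and passed (adjusted p = 0.0227), in a model that called 4.56% of all probe sets. The adjusted p of Pitx1 over the alternatives tried lay between 0.0227 and 0.608.

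A pair of marker lists covers tissues known to express Pitx1. The summed intensity of 10 measured epithelium markers was 765, 848 and 905 at GD12, then 1243, 1263 and 1481 at GD13 and 1470, 1319 and 1878 at GD14. It was lowest on GD12 and highest on the third array of each day. Between GD14 and GD12, 248 of all 6868 genes tested rose and 67 fell. Of the 7 epithelium markers that were tested, 3 rose, Krt8, Krt17 and Perp, and 0 fell, and Krt5, Krt14 and Krt15 lay under the filter. Krt17 averaged 407 on GD14 and 110 on GD12. With the block 4 of the 7 rose, the addition being Epcam, an epithelial adhesion gene. Epcam averaged 54.6 on GD14 and 32.7 on GD12 (adjusted p = 0.039 with the block and 0.053 without in limma). Krt18, Cdh1 and Trp63 passed in neither model, at log2 differences of 0.77, -0.02 and -0.21. Pituitary markers had 0 calls among 7 genes tested, all of them higher on GD14 than on GD12. The summed intensity of the 9 measured ones was 453 to 609 on GD14 and 292 to 411 on GD12. The 7 were hormone genes, Pomc, Cga, Gh, Prl, Tshb, Lhb and Fshb. The brightest were Gh, with means of 131 on GD14 and 110 on GD12, and Lhb, with 160 and 104. The factors Lhx3 and Hesx1 lay under the filter and were not tested, so this list says little about pituitary tissue. The part of either list in the Pitx1 values was not tested.

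Alx4, an aristaless-like factor of frontonasal mesenchyme, had intensities of 28.2, 47.2 and 66.8 at GD12, then 32.7, 46.4 and 74.8 at GD13 and 15.2, 25.6 and 49.0 at GD14. The first array was the lowest and the third the highest on each of the 3 days, and the days overlapped. Alx4 averaged 29.9 ± 17.3 on GD14, 51.3 ± 21.5 on GD13 and 47.4 ± 19.3 on GD12 (SD, n = 3 each). The log2 difference of GD14 minus GD12 was -0.67 (95% interval -1.69 to 0.35), with an adjusted p of 0.506 in limma. Compared within array numbers, the differences were -0.78, -0.81 and -0.42. With the number as a block the same difference of -0.67 had a 95% interval of -1.0 to -0.34 and passed (adjusted p = 0.037). Over the alternatives tried the adjusted p lay between 0.037 and 0.826. With the actin ratio as a covariate the difference was -0.24 (adjusted p = 0.765), and with the third arrays left out it was -0.79 (adjusted p = 0.29, and 0.0772 with the block). Omission of single arrays moved it between -0.31, without GD14 replicate 1, and -1.07, without GD14 replicate 3.

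**Figure D2:**
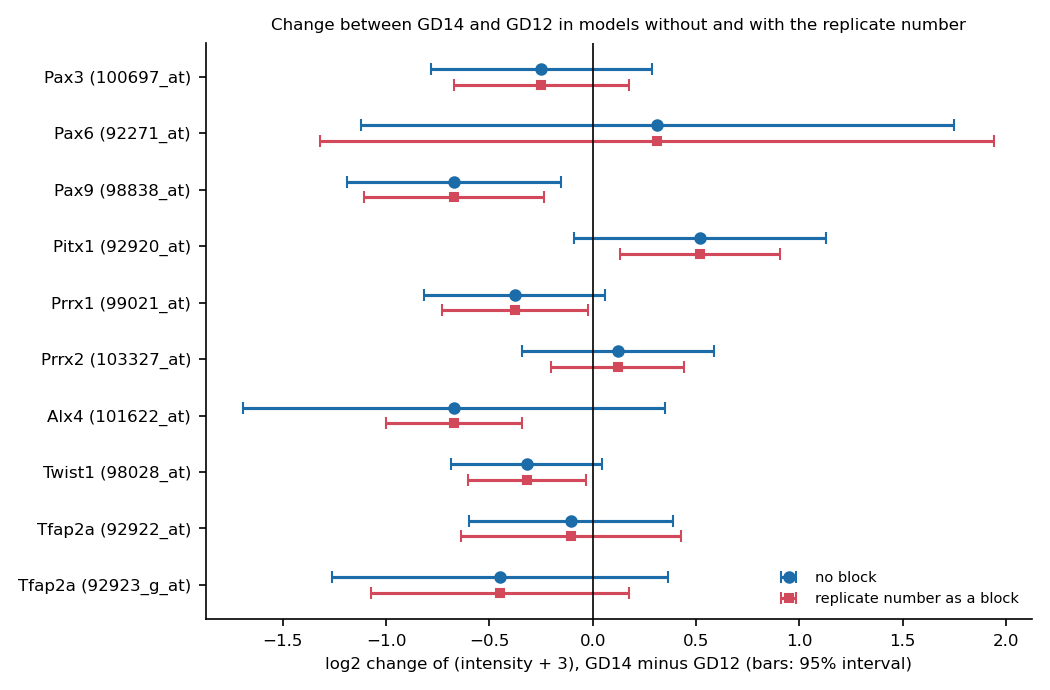
Log2 change of (intensity + 3) for GD14 minus GD12 (x axis) of each probe set (y axis), with unadjusted 95% intervals from the limma model without a block (circles) and with the array number as a block (squares). The interval of Alx4 runs from -1.69 to 0.35 without the block and from -1.0 to -0.34 with it, while that of Pax6 stays wide in both.

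Between GD14 and GD13, Alx4 had a log2 difference of -0.78 (95% interval -1.80 to 0.24, adjusted p = 0.829 in limma), and it was lower on GD14 within 3 of 3 array numbers. In this step 5 of the 10 probe sets kept 1 direction within 3 of 3 array numbers, so the pattern was not particular to Alx4. The block gave Alx4 an adjusted p of 0.151, so neither model called its step. Between GD13 and GD12 the difference was 0.11 (95% interval -0.91 to 1.13). The second step minus the first was -0.89 for Alx4, with an adjusted p of 0.957 in limma and 0.545 with the block. That contrast called 0 of the 10 probe sets and 0.0% of all, and at an unadjusted p under 0.05 it passed 0 of the 10 and 4.86% of all. With the block it called 0 of the 10 (0.0107% of all), and 2 of the 10 passed unadjusted, Alx4 and the _g_at probe set of Tfap2a, against 8.42% of all.

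The paired-related genes Prrx1 and Prrx2 act in overlapping domains of craniofacial and limb mesenchyme. Prrx1 had intensities of 97.9, 131 and 152 at GD12, then 90.4, 119 and 102 at GD13 and 89.2, 102 and 95.8 at GD14. The first array was the lowest of each day, and the days overlapped. Prrx1 averaged 95.6 ± 6.35 on GD14 and 127 ± 27.1 on GD12 (SD, n = 3 each), a log2 difference of -0.38 (95% interval -0.81 to 0.06) with an adjusted p of 0.363 in limma. Without GD12 replicate 3 it was -0.24, and without GD12 replicate 1 it was -0.55.

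Prrx2 had intensities of 503, 429 and 551 at GD12, then 519, 493 and 676 at GD13 and 452, 507 and 671 at GD14. As for Pitx1 and Alx4, the third array was the highest on each day. The log2 difference of GD14 minus GD12 was 0.12 (95% interval -0.34 to 0.59), with an adjusted p of 0.828 in limma, and without GD14 replicate 3 it was -0.04. The difference of Prrx1 and the difference of Prrx2 had opposite signs, but each interval contains 0, and the gap between them was not tested.

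Twist1, a mesenchymal factor that partners with E proteins, had the smallest error of the set, with an SE of 0.16 on the log2 scale, against 0.63 for Pax6. Its intensity was 1691, 1666 and 1315 at GD12, then 1384, 1289 and 1134 at GD13 and 1322, 1221 and 1181 at GD14. The third array was the lowest of each day, the reverse of Alx4, and the third GD12 array lay inside the range of the GD13 and GD14 arrays. Twist1 averaged 1241 ± 72.7 on GD14 and 1557 ± 210 on GD12 (SD, n = 3 each), a log2 difference of -0.32 (95% interval -0.68 to 0.05) with an adjusted p of 0.356 in limma and 0.17 with the block. The difference was negative within 3 of 3 array numbers, at -0.35, -0.45 and -0.15, where 42.8% of all probe sets kept a single direction. Between GD14 and GD13 it was -0.03 (95% interval -0.39 to 0.34).

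Tfap2a was the one gene with 2 probe sets, named here by their suffixes _at and _g_at. The _at probe set had intensities of 72.8, 66.2 and 56.8 at GD12, then 49.6, 50.4 and 70.2 at GD13 and 49.0, 78.1 and 56.7 at GD14. The _g_at probe set had 48.1, 48.9 and 57.2 at GD12, then 34.7, 12.9 and 38.7 at GD13 and 46.5, 26.6 and 40.0 at GD14. The _at probe set overlapped between all days, while in the _g_at probe set every GD13 and GD14 array lay below every GD12 array, the second GD13 array being the lowest. For GD13 minus GD12 the log2 difference was -0.20 in the _at probe set (95% interval -0.70 to 0.29) and -0.89 in the _g_at probe set (95% interval -1.70 to -0.08), with adjusted p values of 0.792 and 0.394 in limma. Without GD13 replicate 2 that of the _g_at probe set was -0.45. For GD14 minus GD12 the differences were -0.11 in the _at and -0.45 in the _g_at probe set (adjusted p = 0.863 and 0.59 in limma). Neither probe set passed, and the gap between them was not tested.

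The 95% intervals say how large a difference these arrays leave possible, before any adjustment for the number of probe sets. In the model without the block, the GD14 minus GD12 interval lay within a 2-fold change in either direction for 5 of the 10 probe sets, namely Pax3, Prrx1, Prrx2, Twist1 and the _at probe set of Tfap2a. The others, Pax6, Pax9, Pitx1, Alx4 and the _g_at probe set of Tfap2a, had intervals that reach beyond 2-fold. With the block the intervals of Pitx1 and Alx4 also lay within 2-fold, which made 7 of 10. For each single-day step the interval without the block lay within 2-fold for 7 of 10. Without the block, the adjusted p of the 10 probe sets lay between 0.164 and 0.863 for GD14 minus GD12, between 0.394 and 0.956 for GD13 minus GD12, and between 0.829 and 0.997 for GD14 minus GD13.

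The array number was then examined as a source of variation of its own, with a test added after the values were seen. In the limma model with the number as a block, the number passed for 1 of the 10 probe sets, Alx4 (F-test adjusted p = 0.0481), against 0.472% of all tested probe sets. Averaged over the 3 days, Alx4 deviated from its day mean by -0.62, -0.02 and 0.64 on the log2 scale on arrays numbered 1, 2 and 3. At an unadjusted p under 0.05 the number passed for 3 of the 10, Alx4, Pitx1 and Prrx2, against 22.4% of all. The third array was the highest of every day for these 3 of the 10 probe sets, against 11.8% of all, and the lowest for 1, Twist1, against 11.5%.

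**Figure D3:**
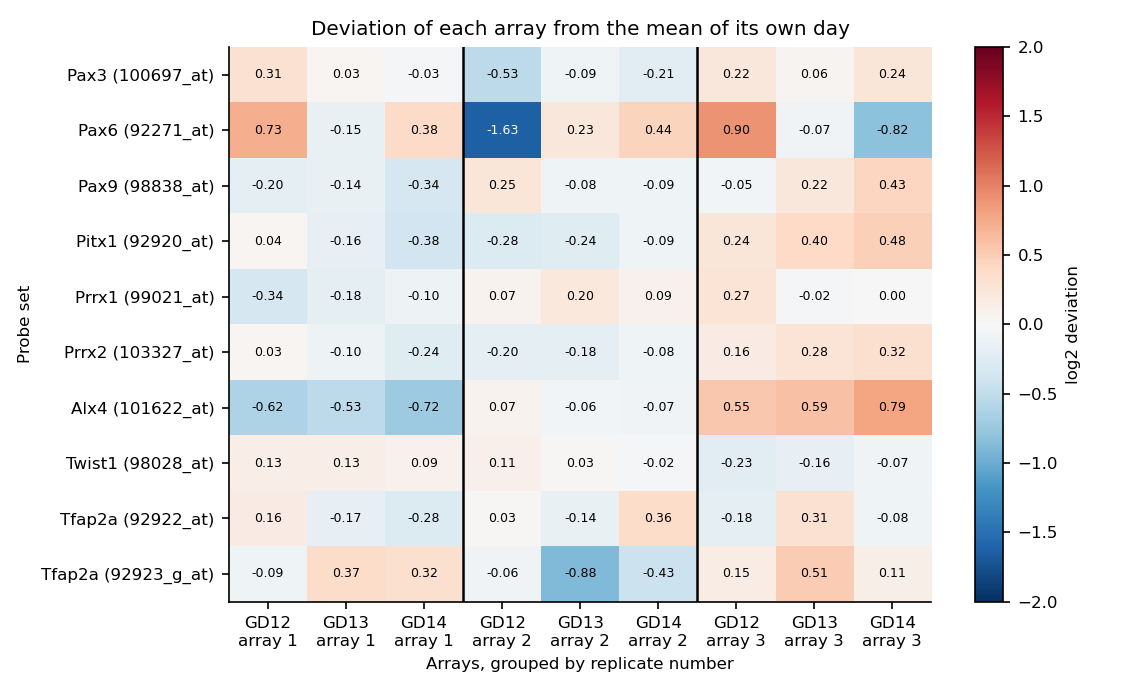
Log2 deviation of each array from the mean of its own day (colour and printed value), for each probe set (rows) and for arrays grouped by their number (columns). Alx4 runs from -0.72 to -0.53 on the first arrays and from 0.55 to 0.79 on the third arrays, and Pax6 has its lowest value, -1.63, on the second GD12 array.

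Other measures also set the third arrays apart. The summed intensity of 13 neuron markers was 3508, 3560 and 1822 on arrays 1, 2 and 3 of GD12, 2175, 2194 and 1475 on those of GD13, and 1983, 1901 and 1424 on those of GD14. It was thus lowest on the third array of every day, where the actin ratio was low as well and the epithelium markers were highest. Their part in the deviations of Alx4, Pitx1, Prrx2 and Twist1 was not tested. Of 11 neuron markers that were tested, 0 changed between GD14 and GD12 in the model without the block, and 3 fell with it, Stmn2, Elavl4 and Ina, named after their values were seen. All 11 had lower estimates on GD14 than on GD12 (median log2 difference -0.72), and all 11 on GD13 than on GD12 (median -0.61). Their sum thus differed by day as well as by array number.

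Mesenchyme markers were measured on all arrays. All 8 mesenchyme markers were tested, of which 4 rose between GD14 and GD12, Col1a1, Col1a2, Dcn and Lum, and 0 fell. Of all 6868 genes tested, 248 rose and 67 fell. The other mesenchyme markers did not pass. Col3a1 had a log2 difference of 0.64, Pdgfra of -0.12, Fn1 of -0.16 and Vim, at intensities of only 7.4 to 43.9, of -0.84. The summed intensity of the mesenchyme markers was 16660 to 18560 on GD14 and 6344 to 7746 on GD12. Much of this sum came from the matrix genes Col1a1, with means of 5922 on GD14 and 1064 on GD12, and Col1a2, with 4801 and 2240. The sum is therefore no measure of the amount of mesenchyme. The summed intensity of the 9 factors, each by its brightest probe set and therefore mostly Twist1 and Prrx2, was 2243 to 2576 on GD14 and 2521 to 2736 on GD12.

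Relatives of the 9 factors were compared through a list of 22 genes of the Pax, Pitx, Alx, Twist and AP-2 families and related homeobox genes. Of 12 with a probe set, 10 were tested, and 0 rose, 0 fell and 10 did not pass between GD14 and GD12. Their median log2 difference was 0.16, against -0.01 for all genes tested and -0.25 for the 9 factors. Shox2, a homeobox gene of palate and limb mesenchyme, averaged 887 ± 168 on GD14 and 986 ± 79.0 on GD12, and Twist2, the paralogue of Twist1, averaged 394 ± 7.73 on GD14 and 381 ± 64.4 on GD12 (SD, n = 3 each). The Twist2 log2 difference was 0.06 (95% interval -0.34 to 0.46), with an adjusted p of 0.91 in limma. With the block 1 of the 10 fell, Tfap2c, the AP-2 gamma paralogue of Tfap2a, which averaged 214 on GD14 and 347 on GD12 (log2 difference -0.69, adjusted p = 0.0226 with the block and 0.0533 without). Tfap2c was named after its values were seen.

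A second list held 37 other factors of neural crest and facial mesenchyme, of which 27 were tested. Between GD14 and GD12, 1 rose, 2 fell and 24 did not pass, and the median log2 difference was -0.24. Of all 6868 genes tested, 248 rose and 67 fell. Foxc2, a forkhead factor of head mesenchyme and skeleton, fell to 41.1 ± 5.84 on GD14, against 75.7 ± 9.91 on GD12 (SD, n = 3 each), a log2 difference of -0.84 (SE 0.16) with an adjusted p of 0.0235 in limma. Its other probe set did not pass (log2 difference -1.01, adjusted p = 0.155). The Foxc2 call ended when single arrays were omitted, with an adjusted p of 0.0795 and 0.0781 for GD12 replicates 1 and 2, and 0.0837 and 0.0554 for GD14 replicates 2 and 3. Msx1, a palate and tooth factor with which Pax9 is known to interact in mice, fell by 0.96 on the log2 scale (adjusted p = 0.0142), a call that ended on omission of GD12 replicate 1 (0.0547) or GD14 replicate 1 (0.0673). Dlx3, a distal-less factor of epithelium and bone, rose by 1.57 on the log2 scale (adjusted p = 0.00735), and its call ended with the third arrays left out (0.064). With the block 2 of the 27 rose and 3 fell, the additions being Meox2 (adjusted p = 0.0333) and Dlx1 (0.0473), named after their values were seen.

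The dimer partners of Twist1 and the Id proteins, which compete for those partners, were all measured. Of 7 genes tested, 0 rose, 0 fell and 7 did not pass between GD14 and GD12, with a median log2 difference of -0.32. Tcf12, an E protein gene, averaged 1207 ± 67.1 on GD14 and 1609 ± 111 on GD12 (SD, n = 3 each), a log2 difference of -0.41 (95% interval -0.72 to -0.11) with an adjusted p of 0.145 in limma. Id2 averaged 1848 ± 101 on GD14 and 1793 ± 210 on GD12 (SD, n = 3 each), a log2 difference of 0.05 (adjusted p = 0.913).

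Of 24 genes described elsewhere as targets or partners of the 9 factors, 16 were tested, and between GD14 and GD12 1 rose, 0 fell and 15 did not pass. The riser was Cdkn1a, the cell cycle inhibitor p21, at 211 ± 24.4 on GD14 and 63.2 ± 16.8 on GD12 (SD, n = 3 each), a log2 difference of 1.72 (adjusted p = 0.00274 in limma), which its other probe set also showed (1.90, adjusted p = 0.0233). Met, a receptor gene that Pax3 is known to act on in muscle progenitors, and Ret lay under the filter intensity on all arrays. The median log2 difference of this list was -0.03. Among all 6868 genes tested, 248 rose and 67 fell between GD14 and GD12.

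**Figure D4:**
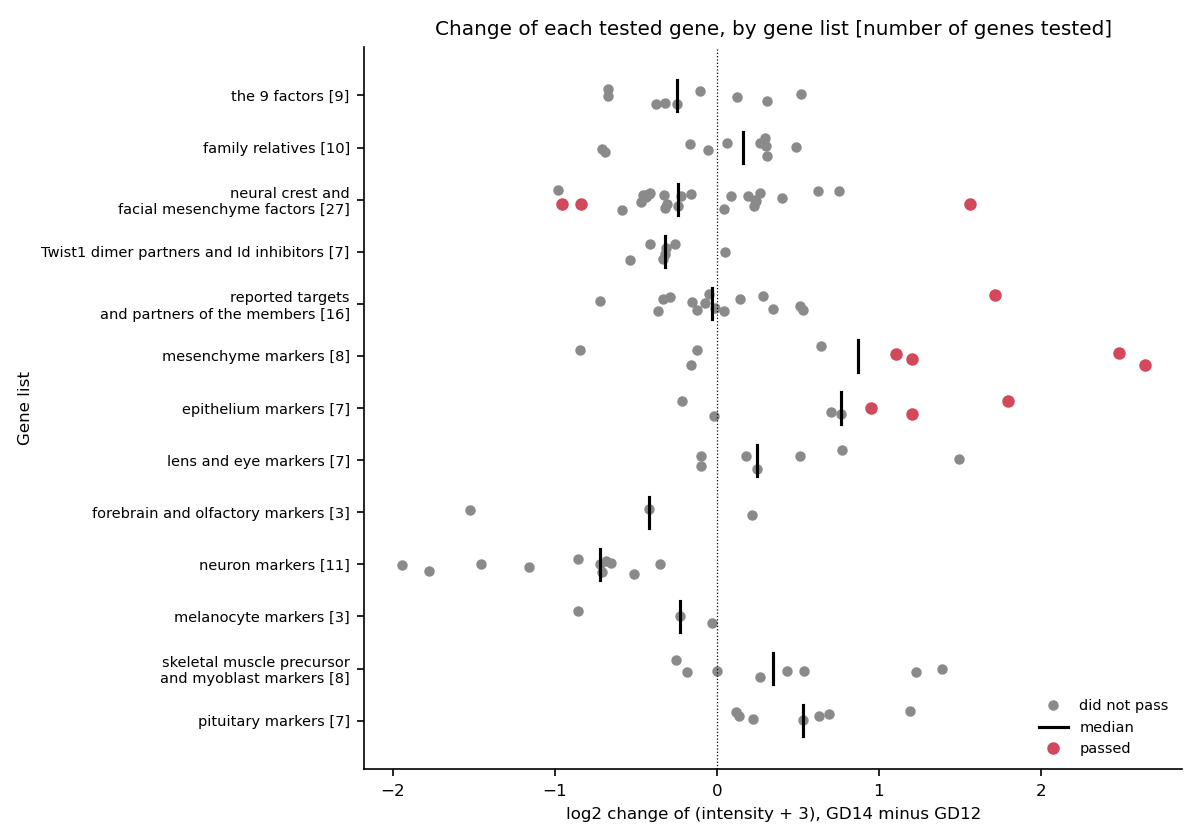
Log2 change of (intensity + 3), GD14 minus GD12 (x axis), of each tested gene by its brightest probe set, for the 9 factors and for each gene list or marker list (y axis, number tested in brackets), with the median as a bar and genes that passed in colour. None of the 9 factors passed in the model without the block, while 3 of 27 factors of neural crest and facial mesenchyme, 4 of 8 mesenchyme markers and 3 of 7 epithelium markers did. Of all 6868 genes tested, 248 rose and 67 fell in that model, so 0 of 9 does not set the factors apart.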

How the data were processed

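Total RNA of orofacial tissue was measured on 9 one-colour arrays, 3 per gestation day. The deposited values are intensity per probe set on a linear scale, scaled by the authors to a mean of 150.1 after trimming 2% at each end on every array, as found from the values; the software and build are not given in the sources used here. Of 12488 probe sets, 66 controls were left out. The array annotation gave 1 symbol for 10833, of which 10817 had gene IDs in the GRCm38.p6 gene table, and 396 had several. The table held 2 values of 0, 0 missing values and 0 identical arrays.

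Values were transformed as log2(intensity + 3). Probe sets at or under the 25th percentile of the mean (intensity 10.4) were removed, leaving 9326. The limma 3.58.1 model in R 4.3.3 had 3 day means and 6 residual degrees of freedom, with Benjamini-Hochberg adjustment, and was tested on simulated data. The simulated arrays were drawn independently, so that test does not cover deviations shared by arrays of the same number. Python 3.11.15, pandas 2.3.3, numpy 2.4.6 and matplotlib 3.10.9 made tables and plots. The number of arrays limits the precision.

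Same-numbered arrays had residual correlations of 0.19 to 0.42 over 9 pairs, and arrays of different number and day -0.29 to -0.02 over 18 pairs. The numbers were therefore taken to pair the arrays. Residuals from a day mean cancel within the day, so these pairs are not independent of each other. Alternatives were other normalizations, added values, filters and variance models, array weights, the block, the actin ratio, omission of arrays and only the groups compared. Genes and lists were chosen with earlier results of these data known. Every probe set of the 9 genes is named. From each of the 4 lists of factors, partners and targets, up to 4 genes that passed the F-test or GD14 minus GD12 are named, or else up to 2 of the brightest, each gene by its brightest tested probe set. The markers named passed, lay under the filter, or are other measured genes of the mesenchyme, epithelium and pituitary lists. No factor passed the F-test, so no gene was sought by likeness of profile. The test of array numbers and the omission of arrays numbered 3 were added after seeing the data.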

Additional observations from a re-analysis of the deposited data

How the results depend on the processing

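Across the alternatives, 0 of the 10 probe sets of the 9 factors were called in each comparison, with 2 exceptions for GD14 minus GD12. With the replicate block 1 was called, Alx4, and with the actin ratio covariate 1 was called, Pitx1. Both alternatives were planned, and the cause was not tested. The replicate block changed no other call of the 9 factors. Omission of single arrays, or of arrays numbered 3 (chosen after seeing the data), called 0. The filter at the median tested only 5 of the 10 probe sets. Over all probe sets the GD14 minus GD12 calls numbered 401, and under the alternatives between 141 (without arrays numbered 3, with the block) and 620 (block), with 176 as the lowest count on omission of a single array (GD14 replicate 1). With only the groups compared in the fit, the calls of Msx1 (adjusted p = 0.062 in limma) and Foxc2 (0.0807) ended. Signs of uncalled log2 differences turned as follows. For GD14 minus GD13, Pax3 was at -0.03 with array weights and -0.08 without the arrays numbered 3, Pax6 at -0.00582 with an added value of 1 and -0.03 with the actin ratio, and Prrx2 at 0.02 with the actin ratio. The second step minus the first was 0.17 for Pax6 with array weights. With single arrays omitted, GD14 minus GD13 ranged from -0.11 to 0.11 for Pax3, -0.21 to 0.42 for Pax6, -0.22 to 0.08 for Prrx2, -0.11 to 0.04 for Twist1 and -0.08 to 0.25 for the _at probe set of Tfap2a. GD14 minus GD12 ranged from -0.51 to 0.76 for Pax6, -0.04 to 0.24 for Prrx2, -0.29 to 0.03 for the same Tfap2a probe set, -0.03 to 0.19 for Twist2 and -0.05 to 0.12 for Id2. GD13 minus GD12 ranged from -0.52 to 0.75 for Pax6, -0.04 to 0.28 for Pitx1 and -0.2 to 0.38 for Alx4. The second step minus the first ranged from -0.74 to 0.53 for Pax6, -0.03 to 0.6 for Pitx1, -0.02 to 0.37 for Prrx1 and -0.41 to 0.04 for Prrx2. Pax6 lay near the filter intensity of 10.4, and its values set no order of days.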
